A study of Homo sapiens with 4 samples.

Results

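Polo-like kinases are serine/threonine kinases that carry an amino-terminal kinase domain and carboxy-terminal polo boxes, which dock the enzyme onto its targets. PLK1 drives entry into mitosis, spindle assembly and cytokinesis, and its mRNA peaks late in the cell cycle. PLK4 starts centriole duplication. PLK2 and PLK3 are described as immediate-early and stress-response kinases, and both are known p53 targets. The 4 genes PLK1, PLK2, PLK3 and PLK4 are described here, of 34500 genes that the deposited transcripts map to. They were selected on measured values, with PLK2 and PLK3 as one pair and PLK1 and PLK4 as the other, namely on how their summed transcripts differed between TGF-β1 and control libraries within each replicate number, so every value of that comparison below is a description and carries no test.

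RNA came from MCF10A, an immortalised, non-tumorigenic human mammary epithelial line. Treated cells received TGF-β1, a cytokine that signals through SMAD2 and SMAD3, in the medium at 5 ng/ml for 1.5 h (2 libraries). The controls were taken at 0 h (2 libraries). None of the 4 libraries was untreated at 1.5 h, so TGF-β1 and the time and handling that went with it cannot be told apart. Cells of both groups carried a scramble shRNA, a non-targeting hairpin RNA, and grew in medium with EGF, cholera toxin, insulin, hydrocortisone and horse serum. The labels call the libraries biological duplicates and do not say what a shared replicate number marks. The 4 libraries held 35737659 to 40792300 estimated counts. Basal mammary markers were abundant, with 7 genes summing to 7956 and 5606 TPM in TGF-β1 replicates 1 and 2 and to 7469 and 5128 TPM in the controls. The 2 general epithelial markers summed to 120 to 156 TPM and the 7 luminal ones to 505 to 701 TPM, mostly KRT8 and KRT18, while KRT19, a luminal keratin, stayed under 1 TPM in every library. The blood marker CD3E was at 0 in all libraries, the 5 blood markers summed to 22.9 to 36.4 TPM through CD14, and the 4 endothelial markers summed to 1.37 to 1.84 TPM. Of the 7 fibroblast markers, 5 stayed under 1 TPM in every library, and the list summed to 28.5 and 26.2 TPM after TGF-β1 and to 21.4 and 19.8 TPM in the controls, mostly from DCN. COL1A1, a collagen gene in that list, had 8.76 and 4.40 TPM after TGF-β1, against 2.96 and 1.99 TPM in the controls. The part of these markers in the results below was not tested. In bulk RNA, fewer cells expressing a gene and less RNA per cell cannot be told apart.

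The 4 genes did not move as 2 pairs after TGF-β1. PLK2 was 3.21-fold lower and PLK3 1.57-fold higher than in the controls, so the genes of the immediate-early pair moved apart. The mitotic gene PLK1 and the centriole gene PLK4 differed little by counts, at 0.926 and 0.879 of the control level. Between libraries of different replicate number, PLK1 and PLK4 were both lower in the libraries numbered 2, by log2 fold changes of -0.87 and -1.04, and that comparison took no part in the choice of genes.

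Short stretches of the promoters are shown because they hold letters known from the control of such genes. RefSeq promoter windows on GRCh38.p14 matched all 4 genes, each running from 250 bases before to 50 bases after a transcription start. The windows were searched on both strands. The cell-cycle genes homology region (CHR), known from genes of the late cell cycle, was searched as TTTGAA. The core of the cAMP response element (CRE) was searched as TGACG. A short sequence bound by SMAD proteins was searched as CAGAC. The CCAAT box, the TATA box (TATAAA) and the E-box (CACGTG) were searched as well. Each line below gives 30 bases in the direction of transcription, with the match in capitals.
PLK1 CHR, chr16:23678848-23678877, plus strand: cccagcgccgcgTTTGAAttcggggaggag
PLK4 CHR read on the other strand, chr4:127880913-127880942, plus strand: ggcaagcggcgggagattTTCAAAatggga
PLK2 CRE core, chr5:58460146-58460175, minus strand: gggcataggccgTGACGtgatgtcgcgtat
PLK3 SMAD sequence, chr1:44800304-44800333, plus strand: actctcggtgacCAGACgccggggaggggg
PLK3 SMAD sequence read on the other strand, chr1:44800195-44800224, plus strand: cgaggaggcgggGTCTGgcagtgcgttggg

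The PLK1 match to the CHR began 29 bases before the start, and the PLK4 match 39 bases after the first of its 3 RefSeq starts. Of 35116 windows, 15.2% held the CHR letters on either strand. The PLK2 match to the CRE core began 77 bases before the start, and 24.6% of windows held it. The PLK3 matches to the SMAD sequence began 61 and 170 bases before the start, and 45.3% of windows held it. The PLK1 window also held a CCAAT box (34.6% of windows), an E-box (7.26%) and the SMAD sequence, and the first PLK4 window also held the CRE core and the SMAD sequence. The TATA box (11.5% of windows) was found in no window of the 4 genes. None of these matches overlapped another. They are matches of letters, and binding was not measured here.

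Levels between genes can be compared only per length, so the order is given in TPM, summed over the transcripts of a gene. PLK1 averaged 44.1 ± 20.4 TPM after TGF-β1 and 51.2 ± 23.5 TPM in the controls (SD, n = 2 libraries each here and throughout). PLK2 averaged 16.6 ± 2.07 TPM after TGF-β1 and 58.9 ± 2.96 TPM in the controls. PLK3 averaged 27.1 ± 0.714 TPM after TGF-β1 and 18.1 ± 0.71 TPM in the controls. PLK4 averaged 18.5 ± 10.4 TPM after TGF-β1 and 18.2 ± 5.997 TPM in the controls. After TGF-β1 the order in both libraries began with PLK1 and PLK3, and PLK2 and PLK4 changed places between the libraries. In the controls PLK1 and PLK2 held the top places in either order, as did PLK3 and PLK4 the lower places. By group means, PLK4 and PLK2 were neighbours after TGF-β1, and PLK2 and PLK1 as well as PLK4 and PLK3 in the controls, and their libraries overlapped. After TGF-β1, PLK1 (58.5 and 29.7 TPM) lay above PLK3 (27.6 and 26.6 TPM) and PLK3 above PLK4 (25.9 and 11.2 TPM) without overlap, but by less than 1 SD of PLK1 and of PLK4. In the controls PLK1 (67.8 and 34.5 TPM) lay above PLK4 (22.4 and 13.9 TPM) by more than the SD of either. In protein-coding transcripts alone the order was not the same. PLK4 then lay above PLK3 in TGF-β1 replicate 1 (14.5 against 13.3 TPM) and in both controls (16.6 and 8.03 against 8.63 and 6.49 TPM). Over all transcripts PLK4 lay above PLK3 only in control replicate 1. In coding transcripts PLK2 lay above PLK3 in TGF-β1 replicate 2 (13.5 against 10.1 TPM). Summed over all classes, PLK2 had 15.1 and 18.1 TPM after TGF-β1 and 56.8 and 61.0 TPM in the controls. PLK2 made up 11.9% and 21.1% of the TPM of the 4 genes in TGF-β1 replicates 1 and 2, against 34.3% and 48.0% in the controls.

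PLK1 (chr16:23677656-23690367, plus strand, GRCh38) is the kinase of mitotic entry and spindle function. It had 87.0 and 48.6 CPM (counts scaled to library size) in TGF-β1 replicates 1 and 2, against 95.4 and 51.0 CPM in control replicates 1 and 2. The groups overlapped, and in each of them the library numbered 2 was low. The log2 differences of TGF-β1 minus control were -0.13 within replicates 1 and -0.07 within replicates 2. In TPM the ratios of TGF-β1 to control were 0.863 and 0.859. Without TGF-β1 replicate 2 the log2 fold change turned to 0.25, and without control replicate 1 to 0.41. In such fits the groups no longer hold the same replicate numbers.

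PLK4 (chr4:127880861-127899195, plus strand), the kinase that licenses a new centriole, had the same pattern over libraries. It stood at 38.0 and 18.0 CPM in TGF-β1 replicates 1 and 2, against 42.6 and 21.3 CPM in control replicates 1 and 2. The log2 differences of TGF-β1 minus control were -0.16 within replicates 1 and -0.24 within replicates 2. By TPM the direction was not the same in both numbers: PLK4 was 1.15 times the control in replicates 1 and 0.803 times in replicates 2. The coding class was lower in both numbers, and the other classes were not. Protein-coding PLK4 transcripts held 14.5 and 6.63 TPM after TGF-β1, against 16.6 and 8.03 TPM in the controls. Retained-intron transcripts of PLK4 held 7.03 and 1.78 TPM after TGF-β1, against 3.04 and 3.55 TPM in the controls, on 24.2 to 105 estimated counts per library. The processed transcript of PLK4 held 4.34 and 2.79 TPM after TGF-β1, against 2.80 and 2.37 TPM in the controls. With transcript length as an offset, the PLK4 log2 fold change was 0.04. Without TGF-β1 replicate 2 it was 0.26, and without control replicate 1 it was 0.40, again with unequal replicate numbers in the groups. Both PLK1 and PLK4 were lower by counts within both replicate numbers, as were 28.6% of the 14774 genes tested.

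PLK2 (chr5:58453982-58460260, minus strand), which has been tied to centriole duplication and to synaptic plasticity as well as to stress, differed most. It had 21.0 and 31.6 CPM in TGF-β1 replicates 1 and 2, against 81.9 and 87.0 CPM in control replicates 1 and 2. Both TGF-β1 libraries lay far below both controls. The group means were 26.3 ± 7.52 CPM after TGF-β1 and 84.4 ± 3.59 CPM in the controls. The log2 fold change was -1.68, with -1.96 within replicates 1 and -1.46 within replicates 2, and it ranked 19 from the lowest of the 14774 genes. PLK3 (chr1:44800225-44805990, plus strand), a kinase that responds to DNA damage and to hypoxia, went the other way. It had 32.0 and 32.0 CPM in the TGF-β1 libraries, against 21.6 and 19.1 CPM in control replicates 1 and 2. Its log2 fold change was 0.65, with 0.57 within replicates 1 and 0.74 within replicates 2, and it ranked 360 from the top. Groups that do not overlap were seen in 8.34% of all genes on the lower side and in 7.87% on the higher side. Leaving out any library kept the PLK2 log2 fold change between -2.01 and -1.42 and that of PLK3 between 0.57 and 0.76.

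**Figure D1:**
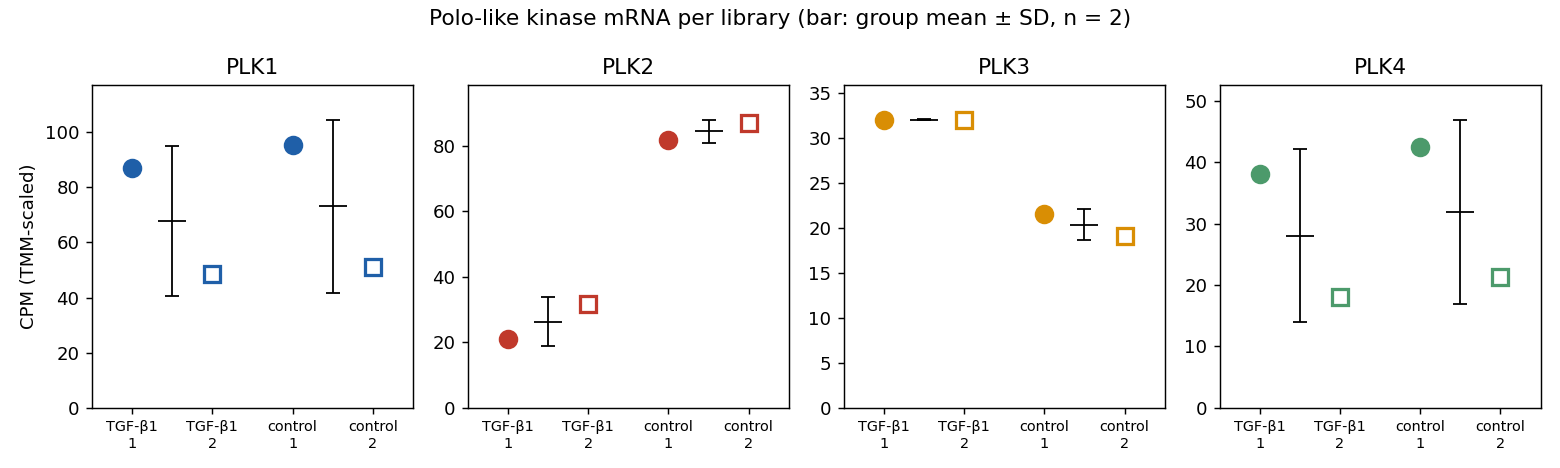
CPM of PLK1, PLK2, PLK3 and PLK4 (vertical axes, each from 0) in the 2 TGF-β1 and 2 control libraries (filled circles, replicate 1; open squares, replicate 2), with the group mean and SD in black. PLK2 sits at 21.0 and 31.6 CPM after TGF-β1, below 81.9 and 87.0 CPM in the controls, PLK3 is at 32.0 CPM in both TGF-β1 libraries, and PLK1 and PLK4 separate by replicate number.

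The transcripts behind these sums differed between the genes. PLK1-201, the full-length coding transcript of 2227 bases, carried 95.5% and 97.0% of PLK1 TPM in TGF-β1 replicates 1 and 2, against 88.6% and 91.3% in the controls. PLK2-201, of 2960 bases, carried 60.5% and 74.9% of PLK2 TPM after TGF-β1, against 62.8% and 61.9% in the controls. Nearly all the rest of PLK2 was in 12 transcripts annotated as retained introns, which hold unspliced sequence. Their sum was 5.97 and 4.54 TPM in TGF-β1 replicates 1 and 2, against 20.2 and 23.3 TPM in the controls. The protein-coding PLK2 transcripts held 9.16 and 13.5 TPM after TGF-β1, against 36.7 and 37.7 TPM in the controls. Both classes were therefore lower in both numbers. The log2 differences of TGF-β1 minus control were -1.76 and -2.36 for the retained introns and -2.00 and -1.48 for the coding class. The retained-intron sums rest on 78.1 and 55.1 estimated counts after TGF-β1 and on 235 and 259 in the controls.

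PLK3 has 1 coding transcript in the tables, PLK3-201 of 2492 bases, and 6 processed transcripts. PLK3-201 held 13.3 and 10.1 TPM after TGF-β1, against 8.63 and 6.49 TPM in the controls. The 6 processed transcripts together held 14.3 and 16.5 TPM after TGF-β1, against 9.93 and 11.1 TPM in the controls. Both parts of PLK3 were higher after TGF-β1 within each number, by log2 differences of 0.62 and 0.64 for the coding transcript and of 0.53 and 0.57 for the others. PLK4 was spread over several coding transcripts. PLK4-210 of 3060 bases held 26.4% and 29.2% of its TPM after TGF-β1, against 28.5% and 21.9% in the controls. PLK4-201, the longest at 3841 bases, held 14.2% and 25.7% after TGF-β1, against 36.8% and 25.9% in the controls. PLK4-211 held 12.4% in TGF-β1 replicate 1 and at most 1.50% in any other library. Such shares are estimates from shared reads, and their error within a library is not given in the deposited tables.

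**Figure D2:**
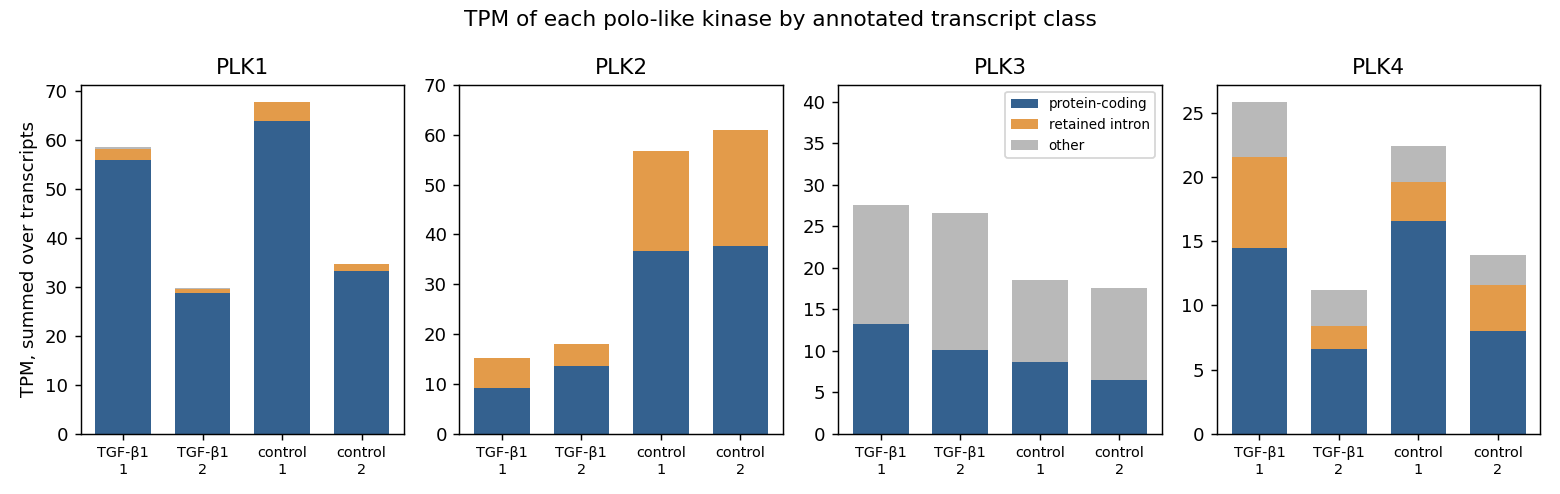
TPM of each polo-like kinase (bar height, from 0) in the 2 TGF-β1 and 2 control libraries, split into protein-coding, retained-intron and other transcripts. Both PLK2 classes are low after TGF-β1, where retained introns hold 5.97 and 4.54 TPM against 20.2 and 23.3 TPM in the controls, and PLK4 in TGF-β1 replicate 1 stands out by its 7.03 TPM of retained introns.

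The reads of the 4 genes could be told apart from each other, since their annotated transcripts shared no run of 31 bases. PLK2 and PLK4 shared none with any other annotated gene. PLK1 shared 15.1% of its 31-base runs with other genes, most of them with AC008870.3, an antisense gene that overlaps it. None of the deposited transcripts matched AC008870.3, so it has no count. Whether its reads were counted for PLK1 was not tested. PLK3 shared 5.99% of its runs with other genes. PLK1 also overlaps ERN2 by 42 bases and PLK3 overlaps TCTEX1D4 by 78 bases, both on the opposite strand and with at most 13.2 estimated counts per library. Whether the counting used strand is not given in the sources used here. PLK5, the other gene with a PLK name in the annotation, had 0 and 2 estimated counts after TGF-β1 and 1 and 4 in the controls.

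The comparison of libraries numbered 2 with those numbered 1 took no part in choosing the genes and was tested with edgeR's quasi-likelihood test, with treatment as a covariate. PLK1 fell to 49.8 ± 1.73 CPM in the libraries numbered 2, against 91.2 ± 5.93 CPM in those numbered 1 (SD, n = 2 libraries each, 1 per treatment). Its log2 fold change was -0.87 ± 0.05 (SE, edgeR adjusted p = 5.25e-05), with -0.84 within the TGF-β1 libraries and -0.90 within the controls. PLK4 fell to 19.7 ± 2.30 CPM in the libraries numbered 2, against 40.3 ± 3.19 CPM in those numbered 1. Its log2 fold change was -1.04 ± 0.06 (SE, edgeR adjusted p = 6.62e-05), with -1.07 within the TGF-β1 libraries and -0.996 within the controls. Genes called lower made up 25% of those tested, genes called higher 19.9% and genes called in either direction 44.9%. The libraries numbered 2 lay below those numbered 1 without overlap for PLK1 and PLK4, as for 36.6% of all genes, and above them for 35.9%. DESeq2 called PLK1 and PLK4 too, with adjusted p of 1.36e-14 and 5.04e-11, and called 16.3% of its genes lower, 9.32% higher and 25.6% in all.

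PLK2 and PLK3 did not pass between the numbers. PLK2 had a log2 fold change of 0.31 ± 0.11 (SE, edgeR adjusted p = 0.0525), which came from 0.59 within the TGF-β1 libraries and 0.09 within the controls. It passed with no filter on low counts (adjusted p = 0.0273) and with a filter of 50 counts in 2 libraries (0.0375). PLK3 had -0.08 ± 0.07 (SE, edgeR adjusted p = 0.399), with 0.0014 within the TGF-β1 libraries and -0.17 within the controls. For both genes the libraries of either number overlapped. The test has a single residual degree of freedom among the 4 libraries and borrows the rest of its spread from other genes.

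**Figure D3:**
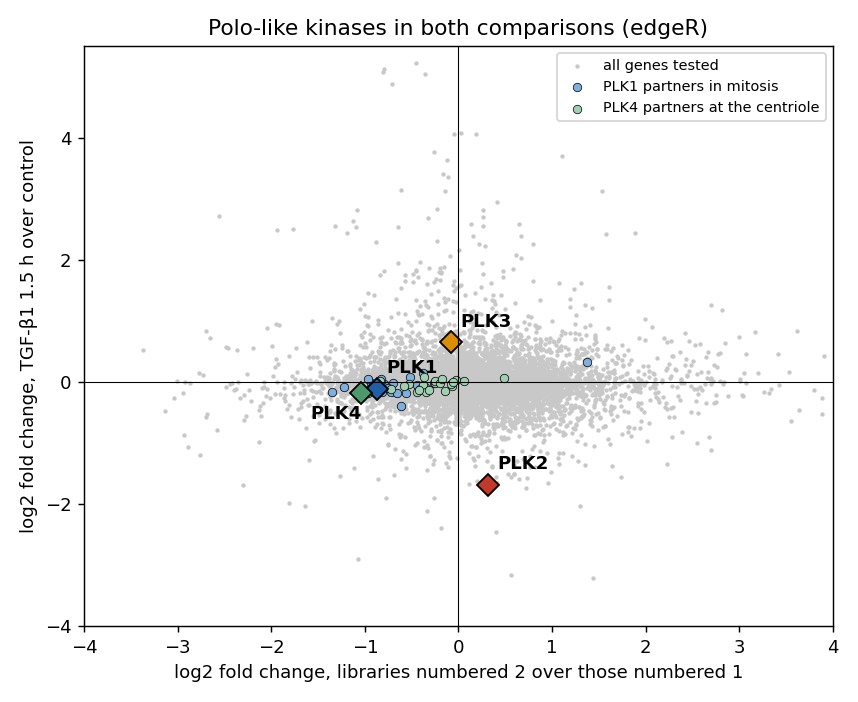
Log2 fold change between replicate numbers (horizontal axis) and between TGF-β1 and control (vertical axis) for all genes tested (grey, 31 of them outside the plotted range), for partners of PLK1 and PLK4 (circles) and for the polo-like kinases (diamonds). PLK1 and PLK4 lie at -0.87 and -1.04 on the horizontal axis and near 0 on the vertical axis, where PLK2 and PLK3 lie at -1.68 and 0.65.

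Genes that work with each kinase were read from fixed lists, which were written with earlier results of these data known. All 25 partners of PLK1 in mitosis were measured, and 0 of them passed edgeR or DESeq2 for TGF-β1 against control (0 at an unadjusted edgeR p under 0.05). In that comparison edgeR called 0% of all genes (1.73% at an unadjusted p under 0.05) and DESeq2 0.458%. Here and for the lists below, both fits for TGF-β1 held no term for replicate number. A gap between numbers therefore counted as spread, and 0 passing does not show that genes were unchanged. The list median log2 fold change was -0.08, beside -0.01 over all genes tested. Lower within both numbers were 17 of the 25, and 28.6% of all genes. Between the numbers, 24 of the 25 fell by edgeR and 23 by DESeq2, where edgeR called 25% of all genes lower and DESeq2 16.3%. The list median log2 fold change was -0.80, beside 0.01 over all genes. AURKA, the kinase that activates PLK1 together with BORA, had 78.7 and 80.5 CPM in the TGF-β1 and control libraries numbered 2, against 189 and 219.9 CPM in those numbered 1 (edgeR adjusted p = 2.99e-05). TPX2, a spindle protein that activates AURKA, was 2.33-fold lower in the libraries numbered 2 (edgeR adjusted p = 2.66e-05). KIF20A, a kinesin that PLK1 binds in cytokinesis, was 1.84-fold lower (4.58e-05). FBXO5, an inhibitor of the anaphase-promoting complex, had the smallest p of the list for TGF-β1, with 27.2 and 19.5 CPM after TGF-β1 against 38.3 and 22.8 CPM in the controls, and did not pass. The gene called higher in the libraries numbered 2 was NINL, a centrosomal protein, at under 1 CPM in all libraries and not called by DESeq2. It is named after its values were seen.

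All 22 partners of PLK4 at the centriole were measured. None passed for TGF-β1 against control by edgeR or DESeq2 (0 at an unadjusted edgeR p under 0.05), and their median log2 fold change was -0.04. Between the numbers, 15 fell and 1 rose by edgeR, and 8 fell and 1 rose by DESeq2, with a median of -0.29. EdgeR called 25% of all genes lower and 19.9% higher there, and DESeq2 16.3% and 9.32%. STIL, the scaffold that binds and activates PLK4, was 1.65-fold lower in the libraries numbered 2 (edgeR adjusted p = 0.000382). TUBG1, the gamma-tubulin of microtubule nucleation, was 1.79-fold lower (5.25e-05), and NEDD1, which recruits it, 1.44-fold lower (0.000243). SASS6, which builds the centriole cartwheel, had 17.6 and 19.3 CPM in the TGF-β1 and control libraries numbered 2, against 19.3 and 21.4 CPM in those numbered 1, and did not pass (edgeR adjusted p = 0.170).

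Of 20 regulators of mitotic transcription, 0 passed for TGF-β1 by either test (0 at an unadjusted edgeR p under 0.05), with a median log2 fold change of -0.01. Between the numbers, 16 fell and 2 rose by edgeR, and 11 fell and 1 rose by DESeq2, with a median of -0.39. Of all genes, 25% were called lower and 19.9% higher by edgeR, and 16.3% and 9.32% by DESeq2. MYBL2, which joins the complex that binds the CHR in dividing cells, was 2.85-fold lower in the libraries numbered 2 (edgeR adjusted p = 2.66e-05). FOXM1, the forkhead factor of late cell-cycle genes, was 2.19-fold lower (2.83e-05), and RBL1, the pocket protein p107, 2.02-fold lower (4.84e-05).

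**Figure D4:**
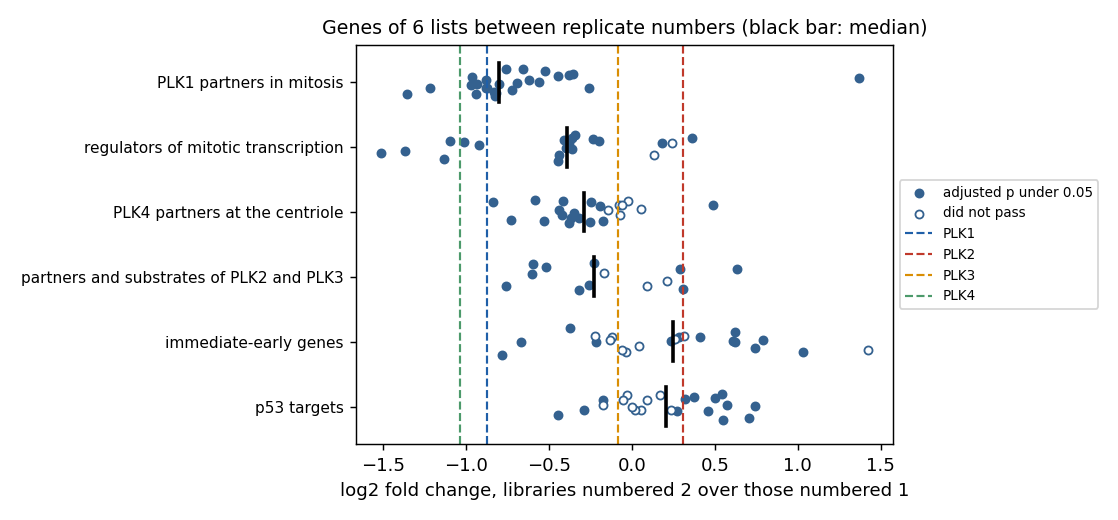
Log2 fold change between replicate numbers (horizontal axis) for each tested gene of 6 lists (rows), filled where the edgeR adjusted p was under 0.05, with the list median as a black bar and the 4 polo-like kinases as dashed lines. The PLK1 partners have a median of -0.80, beside the PLK1 line at -0.87, and the centriole list a median of -0.29.

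Of the partners and substrates of PLK2 and PLK3, 13 of 14 were tested and 0 passed for TGF-β1 by either test (0 at an unadjusted edgeR p under 0.05), with a median log2 fold change of -0.02. Between the numbers, 7 fell and 3 rose by both tests, where edgeR called 25% of all genes lower and 19.9% higher and DESeq2 16.3% and 9.32%, with a list median of -0.23. CDC25A, a phosphatase that PLK3 phosphorylates, was 1.51-fold lower in the libraries numbered 2 (edgeR adjusted p = 0.00013). CIB1, a calcium-binding protein that binds both kinases, was 1.51-fold lower (0.000322).

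Immediate-early genes other than PLK2 and PLK3 were mostly tested, 22 of 25, and 5 rose and 0 fell by DESeq2 for TGF-β1 against control, where DESeq2 called 0.422% of all genes higher and 0.0356% lower. EdgeR called 0, with 11 at an unadjusted p under 0.05. JUN, an AP-1 subunit, had 132 and 203 CPM after TGF-β1, against 25.3 and 22.2 CPM in control replicates 1 and 2 (DESeq2 adjusted p = 2.31e-18). JUNB had 731 and 805 CPM after TGF-β1, against 76.2 and 123 CPM in the controls (6.66e-20). FOSB had 4.55 and 4.40 CPM after TGF-β1, against 0.755 and 0.491 CPM in the controls (9.01e-07). The other genes that rose were KLF10 and FOS. With a library left out, 1 group is a single library that is assumed to vary like the other group. JUN, JUNB and KLF10 passed DESeq2 in all 4 such fits. FOSB no longer passed when TGF-β1 replicate 1 was left out (DESeq2 adjusted p = 0.214), with a log2 fold change of 2.81, against 2.85 with all libraries. Nor did FOS pass when TGF-β1 replicate 2 (DESeq2 adjusted p = 0.338, log2 1.19) or control replicate 1 (0.111, log2 1.36) was left out, against a log2 fold change of 1.67 with all libraries. The list median was 0.29, and 13 of the 22 were higher and 7 lower within both numbers, against 26.3% of all genes higher and 28.6% lower. Between the numbers, 9 rose and 4 fell by edgeR, and 4 rose and 3 fell by DESeq2, with a median of 0.25. Among all genes edgeR called 19.9% higher and 25% lower, and DESeq2 9.32% and 16.3%. FOS was 1.73-fold higher in the libraries numbered 2 (edgeR adjusted p = 0.0001) and FOSL1, another AP-1 subunit, 1.72-fold lower (0.00106).

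All 22 p53 targets listed beside PLK2 and PLK3 were tested. GADD45A, a growth-arrest and stress gene, rose by DESeq2 (adjusted p = 0.0128), as did 0.422% of all genes, and 0 of the list fell. It had 59.9 and 47.6 CPM after TGF-β1, against 28.1 and 23.9 CPM in the controls. With any of the 4 libraries left out it did not pass (DESeq2 adjusted p from 0.146 to 1.00), while its log2 fold change was 0.86 to 1.22, against 1.05 with all libraries. EdgeR called 0, with 2 at an unadjusted p under 0.05, GADD45A and CDKN1A. CDKN1A, the kinase inhibitor p21, had 279.7 and 246 CPM after TGF-β1, against 175 and 156 CPM in the controls, and did not pass. The median log2 fold change of the list was -0.01. Between the numbers, 10 rose and 3 fell by edgeR, and 8 rose and 1 fell by DESeq2, with a median of 0.20. The shares called higher and lower over all genes were 19.9% and 25% by edgeR, and 9.32% and 16.3% by DESeq2. RRM2B, a ribonucleotide reductase subunit, was 1.63-fold higher in the libraries numbered 2 (edgeR adjusted p = 0.000114), BTG2, an antiproliferative factor, 1.67-fold higher (0.000164), and SESN1, a stress protein, 1.49-fold higher (0.000165).

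The genes most like each kinase were found by the distance between their log2 CPM over the 4 libraries, each centred on its mean. These distances include the TGF-β1 differences on which the 4 kinases were chosen, so they and the numbers of near genes are a description. For PLK1 the nearest were ZNF25, GINS4 and BUB1, at distances of 0.0095, 0.033 and 0.033 (log2). BUB1, a spindle checkpoint kinase, had 136 and 77.0 CPM in TGF-β1 replicates 1 and 2, against 151 and 78.6 CPM in control replicates 1 and 2, and 1806 genes lay within 0.5 of PLK1. For PLK4 they were PIF1, CIP2A and UBE2C, at 0.048, 0.059 and 0.067, and 947 genes lay within 0.5. For PLK3 they were EPHA2, NDRG1 and FOXC2, at 0.072, 0.085 and 0.087, and 474 genes lay within 0.5. For PLK2 they were MARCKSL1P1, CXCL2 and DEPP1, at 0.147, 0.243 and 0.284, and 6 genes lay within 0.5. CXCL2, a neutrophil chemokine, had 2.53 and 4.90 CPM in TGF-β1 replicates 1 and 2, against 11.5 and 11.8 CPM in control replicates 1 and 2. MARCKSL1P1, a pseudogene by its name, had 0.0256 and 0.0869 CPM after TGF-β1, against 0.302 and 0.328 CPM in the controls. At such levels its place depends on the prior count of 3, with which its log2 differences were -1.86 within replicates 1 and -1.29 within replicates 2. PLK1 and PLK4 lay 0.20 from each other, and PLK2 lay 2.41 from PLK3.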

How the data were processed

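Per the submitters' processing notes, kallisto and GRCh38 were used; neither a version nor a transcript release is stated there. The tables that the authors deposited give an estimated count, a TPM and an effective length for each transcript, per the file headers. The labels describe stranded libraries depleted of ribosomal RNA, while their molecule field names polyA RNA.

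Of 173259 transcripts, 159239 (91.9%) matched GENCODE release 29, and the others held 2.24% to 2.38% of counts. Gene sums of the estimated counts, as whole numbers, went into edgeR 4.0.16 (R 4.3.3; TMM, filterByExpr, 14774 genes). TGF-β1 was compared with control without covariates, and replicate numbers with treatment as a covariate, by edgeR's quasi-likelihood test (Benjamini-Hochberg, threshold 0.05). DESeq2 1.42.0 and limma 3.58.1 (log2(TPM + 1)) were alternatives. An SE is the log2 fold change over the root of F. Distances use a prior count of 3. The fits were tested on simulated counts. For TGF-β1 the simulation held no difference between replicate numbers, unlike these libraries, and it capped the spread of each gene.

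The genes and lists were chosen with earlier results of these data known. From each list the text draws on the 3 genes with the smallest edgeR p in each comparison, and on genes that passed DESeq2 for TGF-β1, which were added after their values were seen. A few listed genes are not reported here by name. The labels give no more on the duplicates than that they are biological. The p-values for TGF-β1 measure the spread between these duplicate libraries. Those between numbers rest on how far the difference agreed in both treatments, with spread borrowed from other genes. They do not measure a spread between cultures of the same number.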

Additional observations from a re-analysis of the deposited data

How the results depend on the processing

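The direction of PLK2 and of PLK3 after TGF-β1 held under all 18 alternatives, from -2.01 to -1.42 and from 0.56 to 0.76 (log2). Without 1 library, PLK1 ran from -0.60 to 0.43 and PLK4 from -0.83 to 0.42. Both turned upward without TGF-β1 replicate 2 (0.25 and 0.26 by edgeR) or control replicate 1 (0.41 and 0.40). In these fits the groups do not hold the same replicate numbers. PLK4 was 0.042 with transcript lengths as an offset. Between numbers, PLK1 and PLK4 passed in every fit, and PLK3 turned to 0.0014 within the TGF-β1 libraries. With treatment as a covariate, no test between numbers was possible without a library, as no residual degrees of freedom remained. Without that covariate, such fits were not run.

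Genes called for TGF-β1 numbered 0, and 15 without a filter, 3 with length offsets, 90 by DESeq2 and 0 to 71 without 1 library. Of the listed genes these were 0, 2 without a filter, 6 by DESeq2 and 0 to 6 without 1 library. Same-numbered libraries deviated together (r = 0.68 across 14774 genes), but the labels do not say that numbers pair them. With the replicate number as a block, edgeR called 335 genes (14 listed) and DESeq2 245 (12 listed). JUN, JUNB, FOSB, KLF10, FOS and GADD45A all passed edgeR with the replicate block, with adjusted p from 2.83e-05 (FOS) to 0.00186 (FOSB). Between numbers, 6635 genes became 3513 by DESeq2, 4101 by limma and 4175 at a threshold of 0.01.

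Levels per length depend on the transcripts counted. In coding transcripts alone, PLK2 averaged 11.3 TPM after TGF-β1 and 37.2 TPM in the controls, PLK3 11.7 and 7.56 TPM, and PLK4 10.6 and 12.3 TPM. PLK4 thus lay above PLK3 in the controls, where the means over all transcripts were nearly equal (18.2 and 18.1 TPM). Counts over the mean effective length gave 70.8 and 77.7 TPM for PLK1, 36.4 and 119.5 TPM for PLK2, and 30.5 and 19.8 TPM for PLK3, which put PLK2 above PLK3 after TGF-β1. As shares of counts, the transcripts that lead by mean TPM over the 4 libraries held 97.4% and 96.4% of PLK1 in TGF-β1 and control libraries. The same shares were 92.7% and 91.2% for PLK2, 64.9% and 64.4% for PLK3, and 40.1% and 31.9% for PLK4 (PLK4-210). In both controls PLK4-201 lay above PLK4-210, by counts (52.9% and 47.2%) as well as by TPM (36.8% and 25.9%). By counts it also led in TGF-β1 replicate 2, with 46.6% against 41.6%. The cause was not tested.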
